A study of Mus musculus with 12 samples.

Results

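Genes that mark fibroblasts and pericytes were followed at the level of open chromatin in sorted cells of mouse skin and skin carcinoma. The 8 genes were Pdgfra, Pdgfrb, Rgs5, Tbx18, Cspg4, Lum, Dcn and Thy1. A peak of accessibility was given to one of them when that gene was its nearest protein-coding gene and the midpoint of the peak lay in the gene or within 50 kb of it. This gave 73 of the 177240 peaks, against 146459 peaks with any coding gene within 50 kb. Cspg4 had 16 peaks, Dcn 14, Pdgfra 11, Pdgfrb 10, Thy1 9, Rgs5 6, Lum 4 and Tbx18 3.

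The assay was ATAC-seq, which uses a transposase to cut and tag open DNA, and it covered 6 samples of 5 groups. Lgr5 Epcam- (1 sample) and Lgr5 Epcam+ (2 samples) were sorted from tumours of hair follicle origin in mice that carried Lgr5CreER, floxed p53 (p53fl/fl) and the reporter Rosa-YFP+/+. Lgr5 drives the inducible Cre in hair follicle stem cells, and Cre turns on the reporter and removes p53. K14 Epcam+ (1 sample) came from tumours of interfollicular origin with the same floxed p53 and reporter and with K14CreER, in which K14 drives Cre in basal keratinocytes. HF (hair follicle, 1 sample) and IFE (interfollicular epidermis, 1 sample) were normal cells of WT mice. All mice were female and of mixed strain, and age and the number of animals in a sample were not stated in the labels. Cells were sorted with antibodies to Epcam, CD45, CD31 and CD140a. CD45, CD31 and CD140a are the proteins of Ptprc, Pecam1 and Pdgfra, and the labels do not say on which side of each gate cells were kept or whether YFP was used. The question put to the data was whether Epcam- chromatin looked stromal although CD140a, the protein of one of the 8 genes, was stained in the sort.

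Fibroblasts build the connective tissue of the dermis and carry the receptor Pdgfra. Pericytes sit on capillaries and carry the related receptor Pdgfrb, which holds them to the vessel in response to Pdgfb from endothelium. Both receptors are tyrosine kinases that signal when a PDGF dimer joins a pair of them. Rgs5, a regulator of G protein signalling, Tbx18, a T-box transcription factor, and Cspg4, the proteoglycan also called NG2, are used as pericyte markers. Lum and Dcn encode lumican and decorin, small leucine-rich proteoglycans that bind collagen fibrils. Thy1 encodes CD90, a surface protein used to sort fibroblasts and found on T cells and other cells as well.

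Counts in peaks, both runs of a sample together, were 41252832 in Lgr5 Epcam-, 62941406 and 45718546 in Lgr5 Epcam+, 39179299 in K14 Epcam+, 32086654 in HF and 34040799 in IFE. The fraction of a run's counts inside peaks varied, from 21.3% in the single-end HF run to 51.1% in a paired-end Lgr5 Epcam+ run. Levels are given in CPM, counts per 1000000 counts in peaks on chromosomes 1 to 14, after scaling by the trimmed mean of M values. From chromosome 15 to X, counts and library sizes are those of the paired-end run alone. The background expected over the same bases, taken from counts outside peaks, was 0.95 CPM per kb in Lgr5 Epcam-, 0.66 and 0.751 in Lgr5 Epcam+, 0.847 in K14 Epcam+, 1.43 in HF and 1.18 in IFE. Of the 73 peaks, 6 lay under 2 times this background in Lgr5 Epcam-, 26 in each Lgr5 Epcam+ sample, 16 in K14 Epcam+, 39 in HF and 38 in IFE. The median of the 73 was 6.29 times background in Lgr5 Epcam- and 3.49 and 3.16 times in Lgr5 Epcam+. In K14 Epcam+ it was 3.05 times, in HF 1.89 and in IFE 1.97. Over all peaks the median was 3.38 times in Lgr5 Epcam- and 4.46 and 3.91 times in Lgr5 Epcam+. For K14 Epcam+ this all-peak median was 3.55 times, for HF 1.96 and for IFE 2.43, so low levels in HF and IFE were not particular to the 73. At the edge of the window, the member peak farthest from its gene lay 45494 bp from Thy1 and had 5.28 CPM in Lgr5 Epcam-, 0.645 and 0.667 in Lgr5 Epcam+, 1.58 in K14 Epcam+, 1.45 in HF and 1.15 in IFE. The nearest peak left out lay 50105 bp from Pdgfra and had 1.42 CPM in Lgr5 Epcam-, 1.04 and 1.07 in Lgr5 Epcam+, 1.58 in K14 Epcam+, 3.48 in HF and 4.74 in IFE.

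RefSeq (GRCm38.p6) promoter sequences were at hand for 4 of the 8 genes. They are shown because a promoter peak rose in Lgr5 Epcam- cells over Lgr5 Epcam+ cells at Pdgfra and Tbx18, and the promoter peaks of Rgs5 and Cspg4 did not pass the test. Each run holds the 250 bases before the listed start, 5′ to 3′ on the strand of the gene. The windows are chr5:75152001-75152250 (plus strand) for Pdgfra, chr9:87731261-87731510 (minus strand) for Tbx18, chr1:169655251-169655500 (plus strand) for Rgs5 and chr9:56864854-56865103 (plus strand) for Cspg4. The Pdgfra start lies 929 bp inside the span of the gene, and the peak covers 214 of its 250 bases. The peaks at Tbx18, Rgs5 and Cspg4 cover all 250.
Pdgfra: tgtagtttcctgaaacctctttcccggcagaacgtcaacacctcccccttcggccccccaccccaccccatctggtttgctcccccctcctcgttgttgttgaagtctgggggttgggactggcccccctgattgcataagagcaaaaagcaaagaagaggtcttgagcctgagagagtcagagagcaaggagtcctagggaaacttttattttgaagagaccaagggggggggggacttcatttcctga
Tbx18: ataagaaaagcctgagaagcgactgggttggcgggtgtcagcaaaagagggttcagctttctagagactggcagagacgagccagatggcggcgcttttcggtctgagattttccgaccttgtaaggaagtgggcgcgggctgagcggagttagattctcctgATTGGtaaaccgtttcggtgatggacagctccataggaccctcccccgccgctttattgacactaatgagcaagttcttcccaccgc
Rgs5: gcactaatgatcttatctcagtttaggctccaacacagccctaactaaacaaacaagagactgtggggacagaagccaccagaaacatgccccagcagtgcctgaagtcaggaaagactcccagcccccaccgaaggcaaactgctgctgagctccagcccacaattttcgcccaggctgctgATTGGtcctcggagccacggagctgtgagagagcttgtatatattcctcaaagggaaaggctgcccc
Cspg4: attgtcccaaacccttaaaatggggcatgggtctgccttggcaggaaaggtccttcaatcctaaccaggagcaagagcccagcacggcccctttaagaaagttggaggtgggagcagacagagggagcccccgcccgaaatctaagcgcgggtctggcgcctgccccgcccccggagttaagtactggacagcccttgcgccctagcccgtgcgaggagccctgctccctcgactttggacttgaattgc
Capitals mark CCAAT on either strand, a common promoter element, which was chosen after these sequences had been seen. It occurs once upstream of Rgs5 and once upstream of Tbx18, in both as ATTGG, and in 33.8% of 32851 promoters of the same length. The AP-1 letters TGANTCA, searched on both strands like the rest, occur in none of these 4 windows and in 6.75% of all promoters. The TEAD letters GGAATG also occur in none of the 4, against 12.6% of promoters. The same holds for the E-box CACCTG bound by Zeb and Snail factors, against 17.2%, and for the TATA box TATAAA, against 12.4%.

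The main comparison set Epcam- cells against Epcam+ cells of the Lgr5 tumour model. The labels do not say whether they came from the same tumours. Pdgfrb, Rgs5, Tbx18 and Dcn rose, which is 4 of 8 genes against 1.89% of all 18108 genes tested (edgeR quasi-likelihood test, Benjamini-Hochberg adjusted p under 0.05). None of the 8 fell, against 2.15% of all genes. Higher genes made up 46.7% of all calls, 60.1% with total-count scaling and 34.2% with DESeq2. The median log2 ratio of the 8 was 1.58, against -0.11 over all genes, and 7 of 8 lay above 0. Lum, Thy1, Pdgfra and Cspg4 did not pass. The only spread between samples comes from the 2 Lgr5 Epcam+ samples, and lone samples are taken to vary by as much. Whether the pair comes from separate mice was not stated. In bulk samples a larger share of cells of one type and more open chromatin per cell cannot be told apart.

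**Figure D1:**
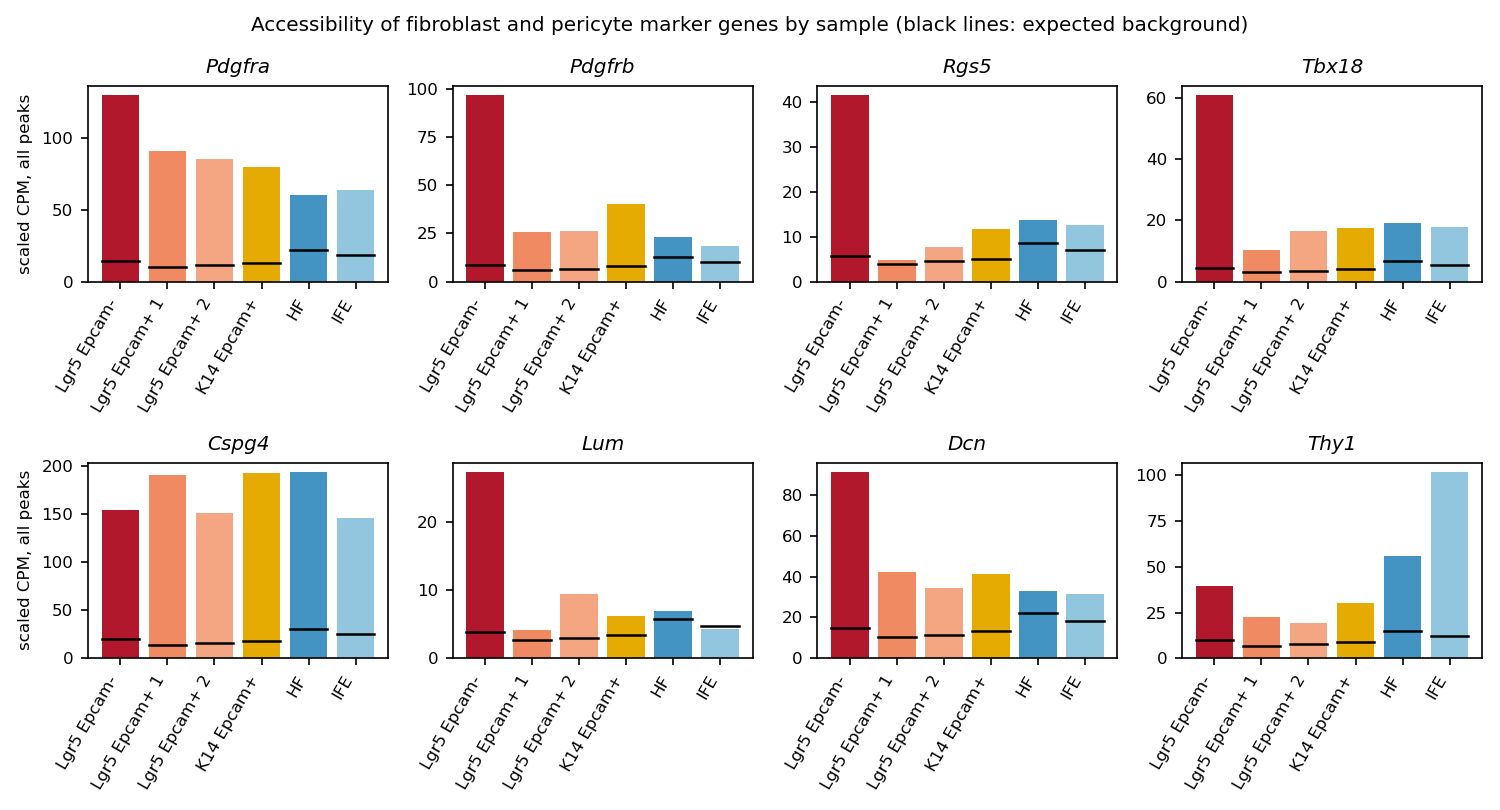
Scaled CPM summed over all peaks of each gene (vertical axis, starting at 0) in the 6 samples (horizontal axis), 1 bar per sample, with the background expected over the same bases as a black line. The Lgr5 Epcam- bar is the highest at 6 of the 8 genes, all but Cspg4 and Thy1.

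Among the receptors, Pdgfrb (gene ID 18596, chr18:61045127-61085067, mm10) stood out in Epcam- cells. Over its 10 peaks it had 96.5 CPM in Lgr5 Epcam-, 25.8 and 26.1 in Lgr5 Epcam+, 40.3 in K14 Epcam+, 22.9 in HF and 18.6 in IFE. The Lgr5 Epcam- sample was the highest of the 6 and K14 Epcam+ was second. The log2 ratio of Lgr5 Epcam- to Lgr5 Epcam+ was 1.90 ± 0.36 (SE, 1 sample against 2, edgeR adjusted p = 0.0252). Against the expected background its level was 11.3 times in Lgr5 Epcam-, 4.38 and 3.89 times in Lgr5 Epcam+ and 1.8 times in HF and in IFE.

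Of the 10 Pdgfrb peaks, 6 rose and none fell. They run along the gene from the peak at its low-coordinate end to one 7352 bp past the other end. The end peak (chr18:61044505-61045547) had 22 CPM in Lgr5 Epcam-, 3.46 and 6.3 in Lgr5 Epcam+, 4.02 in K14 Epcam+, 2.15 in HF and 1.29 in IFE, with a log2 ratio of 2.17 ± 0.58 (adjusted p = 0.0262). The highest Pdgfrb peak on average (chr18:61091857-61092982, outside the gene) had 17.8 CPM in Lgr5 Epcam-, 4.74 and 4.03 in Lgr5 Epcam+, 10.6 in K14 Epcam+, 2.85 in HF and 1.58 in IFE. It rose by 2.02 ± 0.56 (adjusted p = 0.0297), and K14 Epcam+ lay between Lgr5 Epcam- and the other samples. Csf1r, the receptor for macrophage colony-stimulating factor, is the next gene past that end, 20505 bp away, and is listed here as an immune marker. It had 40.9 CPM in Lgr5 Epcam- and 18.5 and 16.4 CPM in Lgr5 Epcam+, a log2 ratio of 1.23 ± 0.41 that did not pass (adjusted p = 0.133).

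Pdgfra (gene ID 18595, chr5:75151322-75198206) gave a split picture. Summed over 11 peaks it had 130 CPM in Lgr5 Epcam-, 91.4 and 85.7 in Lgr5 Epcam+, 80 in K14 Epcam+, 60.5 in HF and 63.9 in IFE. The order runs from Lgr5 Epcam- through the tumour Epcam+ samples to the normal samples. The log2 ratio of Lgr5 Epcam- to Lgr5 Epcam+ was 0.55 ± 0.29 and did not pass (adjusted p = 0.364). The gene was 8.86 times its background in Lgr5 Epcam-, and 8.98 and 7.41 times in Lgr5 Epcam+.

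Behind that sum, the peaks at the start of Pdgfra and the peaks inside it differed. The promoter peak, which holds most of the printed sequence (chr5:75149514-75152214), had 26.1 CPM in Lgr5 Epcam-, 6.93 and 7.19 in Lgr5 Epcam+, 6.82 in K14 Epcam+, 7.65 in HF and 6.29 in IFE. The other 5 samples were close to one another there and Lgr5 Epcam- stood above them all, with a log2 ratio to Lgr5 Epcam+ of 1.89 ± 0.51 (adjusted p = 0.0272). The peak next to it (chr5:75148116-75149419) also rose, by 1.84 ± 0.56 (adjusted p = 0.0464). The highest peak of the gene (chr5:75155635-75157186, inside the span) had 38.2 CPM in Lgr5 Epcam-, 35.1 and 28.1 in Lgr5 Epcam+, 26.6 in K14 Epcam+, 13.1 in HF and 19.1 in IFE. It was open in Epcam+ tumour cells nearly to the Epcam- level, and its log2 ratio of 0.27 ± 0.32 did not pass (adjusted p = 0.682). A further peak inside the gene (chr5:75166063-75167148) had 4.51 CPM in Lgr5 Epcam-, 12.3 and 11.4 in Lgr5 Epcam+, 9.66 in K14 Epcam+, 2.62 in HF and 1.94 in IFE. This one was highest in the Epcam+ tumours, although its log2 ratio of -1.39 ± 0.61 did not pass (adjusted p = 0.16), and it was named after its values were seen.

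**Figure D2:**
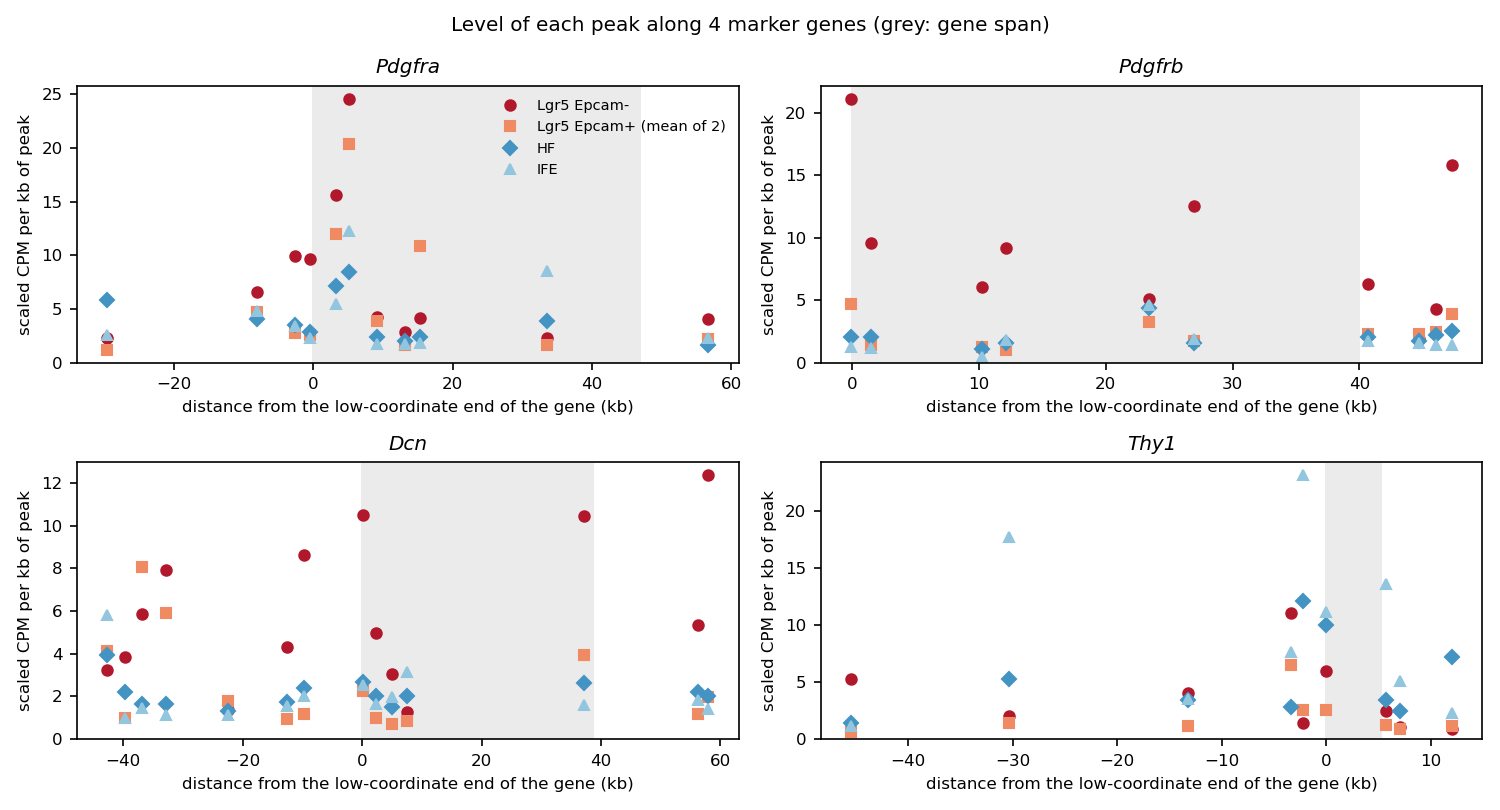
Scaled CPM per kb of each peak (vertical axis) against the distance of its midpoint from the low-coordinate end of Pdgfra, Pdgfrb, Dcn and Thy1 (horizontal axis, kb), with the gene span in grey, for Lgr5 Epcam-, the mean of 2 Lgr5 Epcam+ samples, HF and IFE. At Pdgfra the red Lgr5 Epcam- points leave the others at the start of the gene, at Pdgfrb and Dcn they do so along the gene, and at Thy1 the blue HF and IFE points lie highest at 6 of 9 peaks.

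The pericyte markers Rgs5 and Tbx18 had the highest ratios of the 8 genes with the main settings, but the place of Tbx18 was not stable. Lum stood above Tbx18 with the background subtracted (2.86 against 2.63) and when centred on the region (2.34 against 1.77). It also did without Lgr5 Epcam+ sample 2 (2.72 against 2.54). Pdgfrb stood above Tbx18 over peaks inside the gene (2.22 against 2.02) and, barely, without sample 1 (1.88 against 1.87). Rgs5 (gene ID 19737, chr1:169655501-169695813) had 41.6 CPM in Lgr5 Epcam-, 4.88 and 7.77 in Lgr5 Epcam+, 11.7 in K14 Epcam+, 13.8 in HF and 12.7 in IFE. Its level was 7.25 times the background in Lgr5 Epcam-, 1.22 and 1.71 times in Lgr5 Epcam+, 2.29 times in K14 Epcam+, 1.6 times in HF and 1.78 times in IFE. The log2 ratio was 2.72 ± 0.42 (adjusted p = 0.0181), and 3.95 with the background subtracted, which has no test. All 6 peaks lay at 2 times background or more in Lgr5 Epcam- and under it in both Lgr5 Epcam+ samples, and 5 of them rose. The exception was the promoter peak (chr1:169654785-169655818), at 2.43 CPM in Lgr5 Epcam-, 1.04 and 1.54 in Lgr5 Epcam+, 2.05 in K14 Epcam+, 3.79 in HF and 3.88 in IFE. Its log2 ratio of 0.92 ± 0.59 did not pass (adjusted p = 0.368), and its CPM was highest in the normal samples. Against background this peak was close in Lgr5 Epcam- and HF, at 2.48 and 2.57 times, and 3.17 times in IFE. The highest Rgs5 peak (chr1:169698906-169699906) lies 3593 bp beyond the far end of the gene, with 10.4 CPM in Lgr5 Epcam-, 0.737 and 1.13 in Lgr5 Epcam+, 2.11 in K14 Epcam+, 2.21 in HF and 2.66 in IFE. It rose by 3.48 ± 0.58 (adjusted p = 0.00298). The next gene on that side, Rgs4, a related regulator 45664 bp away, also rose, with 98.6 CPM in Lgr5 Epcam- and 32.3 and 26.4 CPM in Lgr5 Epcam+ (log2 ratio 1.75 ± 0.29, adjusted p = 0.0207).

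Tbx18 (gene ID 76365, chr9:87702800-87731260) has 3 peaks and all 3 rose. The gene had 60.9 CPM in Lgr5 Epcam-, 10.5 and 16.6 in Lgr5 Epcam+, 17.7 in K14 Epcam+, 19.1 in HF and 17.9 in IFE. The other 5 samples ran from 10.5 to 19.1 CPM, and the log2 ratio of Lgr5 Epcam- to Lgr5 Epcam+ was 2.17 ± 0.38 (adjusted p = 0.0229). Its promoter peak (chr9:87729185-87731708), the highest of the gene, had 36.1 CPM in Lgr5 Epcam-, 6.84 and 11 in Lgr5 Epcam+, 11.8 in K14 Epcam+, 9.79 in HF and 10.2 in IFE. It rose by 2.02 ± 0.46 (adjusted p = 0.0123). The Tbx18 peak of largest ratio (chr9:87732508-87733508) had 11.3 CPM in Lgr5 Epcam-, 0.852 and 1.68 in Lgr5 Epcam+, 1.81 in K14 Epcam+, 4.1 in HF and 3.77 in IFE. Its log2 ratio was 3.16 ± 0.60 (adjusted p = 0.0055). Per kb of peak, Tbx18 was the most open of the 8 genes in Lgr5 Epcam- cells, at 12.9 CPM per kb. Other peaks within 5 Mb of Tbx18 had a median log2 ratio of 0.43 in this comparison, and relative to them the ratio of the gene was 1.77.

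Cspg4 (gene ID 121021, chr9:56865104-56899870), the third pericyte marker, was open in every sample. It had 154 CPM in Lgr5 Epcam-, 191 and 151 in Lgr5 Epcam+, 193 in K14 Epcam+, 194 in HF and 146 in IFE. In CPM the Lgr5 Epcam- level lay within the range of the 2 Lgr5 Epcam+ samples, and the log2 ratio was -0.16 ± 0.33 (adjusted p = 0.883). Against the expected background it was lower, 7.66 times in Lgr5 Epcam- and 13.7 and 9.55 times in Lgr5 Epcam+. Relative to other peaks within 5 Mb the ratio of Cspg4 was -0.47, which has no test. Of 16 peaks none rose and 2 fell. The highest peak (chr9:56900533-56901822) had 9.05 CPM in Lgr5 Epcam-, 25.5 and 21.4 in Lgr5 Epcam+, 24.6 in K14 Epcam+, 29.5 in HF and 43.5 in IFE. It was lowest in Lgr5 Epcam- cells and fell by 1.38 ± 0.35 on the log2 scale (adjusted p = 0.0217). The other peak that fell (chr9:56876588-56877800) had 8.48 CPM in Lgr5 Epcam-, 22.3 and 17.4 in Lgr5 Epcam+, 24.4 in K14 Epcam+, 44.3 in HF and 18.5 in IFE (log2 ratio -1.23 ± 0.38, adjusted p = 0.0484). The promoter peak (chr9:56864023-56865168) had 9.28 CPM in Lgr5 Epcam-, 4.84 and 5.6 in Lgr5 Epcam+, 3.66 in K14 Epcam+, 13.2 in HF and 6.03 in IFE, and did not pass (log2 ratio 0.83 ± 0.56, adjusted p = 0.401).

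**Figure D3:**
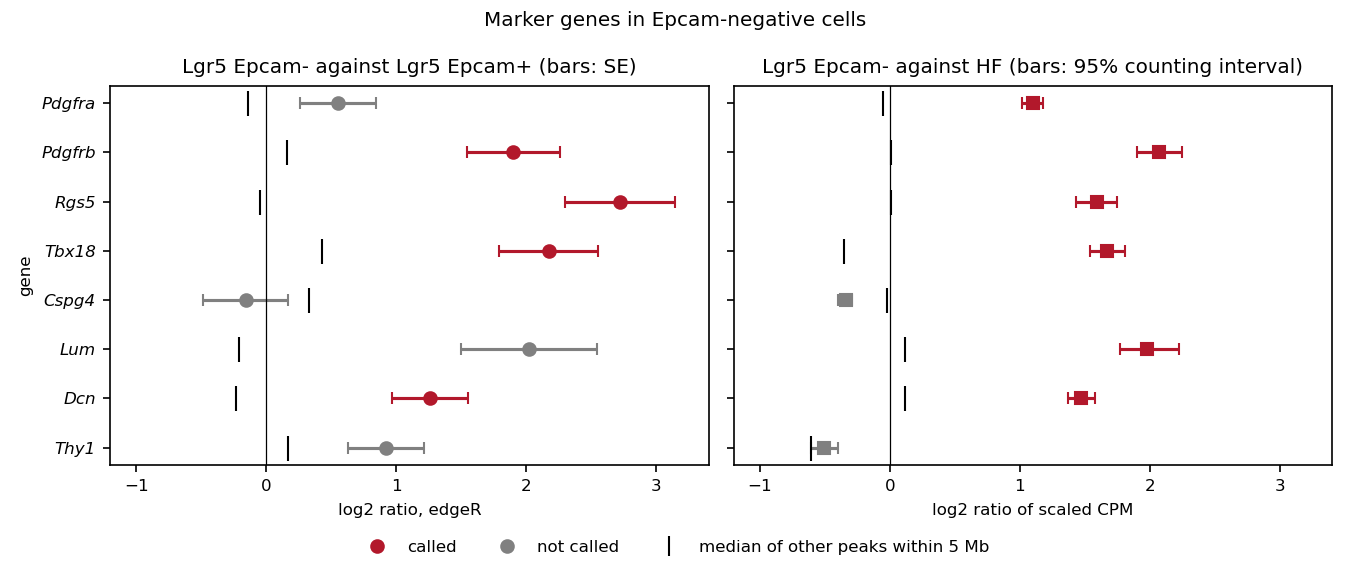
Log2 ratio (horizontal axis) of each gene in Lgr5 Epcam- against Lgr5 Epcam+, with SE bars from edgeR (left), and against HF, with 95% intervals for counting error only (right). Red points were called and grey points were not, and black ticks give the median of the other peaks within 5 Mb. Rgs5, Tbx18, Pdgfrb and Dcn are red on both sides, Lum and Pdgfra on the right side only, and Cspg4 and Thy1 on neither.

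Of the matrix genes, Dcn (gene ID 13179, chr10:97479500-97518163) rose. It had 91.4 CPM in Lgr5 Epcam-, 42.2 and 34.2 in Lgr5 Epcam+, 41.2 in K14 Epcam+, 32.9 in HF and 31.5 in IFE. The log2 ratio was 1.26 ± 0.29 (adjusted p = 0.0442), and with the paired-end run alone it was 1.39 and did not pass (adjusted p = 0.0749). Of 14 peaks 7 rose and none fell. The peak with the largest ratio among those above the median level of all peaks (chr10:97536914-97538084) had 14.5 CPM in Lgr5 Epcam-, 2.6 and 2.06 in Lgr5 Epcam+, 2.93 in K14 Epcam+, 2.34 in HF and 1.65 in IFE. It rose by 2.63 ± 0.56 (adjusted p = 0.00924) and lies between Dcn and Lum. A pair of peaks before the gene showed another pattern. The highest Dcn peak (chr10:97442046-97443144) had 6.47 CPM in Lgr5 Epcam-, 11.5 and 6.24 in Lgr5 Epcam+, 10.5 in K14 Epcam+, 1.79 in HF and 1.58 in IFE. The nearby peak at chr10:97446109-97447198, named after its values were seen, had 8.66 CPM in Lgr5 Epcam-, 9.88 and 3.02 in Lgr5 Epcam+, 10 in K14 Epcam+, 1.79 in HF and 1.22 in IFE. Both were more open in the tumour samples than in the normal ones, Epcam+ tumours included, and neither passed between Lgr5 Epcam- and Lgr5 Epcam+ (adjusted p = 0.731 and 0.779).

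Lum (gene ID 17022, chr10:97565501-97572703) lies next to Dcn, 47338 bp away. It had 27.4 CPM in Lgr5 Epcam-, 4.12 and 9.46 in Lgr5 Epcam+, 6.23 in K14 Epcam+, 6.9 in HF and 4.31 in IFE. Lgr5 Epcam- was the highest sample, and the 2 Lgr5 Epcam+ samples differed from each other more than at any other of the 8 genes. The log2 ratio of 2.02 ± 0.52 just missed the threshold (adjusted p = 0.0618). It passed with total-count scaling (adjusted p = 0.0346), with DESeq2 (0.0214) and in the single-end run alone (0.0109), and the ratio was 2.86 with the background subtracted. It did not pass with loess scaling (0.0697), over peaks within 10 kb (0.0856) or in the paired-end run alone (0.141). Of its 4 peaks 2 rose, and all 4 were highest in Lgr5 Epcam- cells. The highest (chr10:97555487-97556494) had 12.5 CPM in Lgr5 Epcam-, 1.98 and 5.63 in Lgr5 Epcam+, 2.43 in K14 Epcam+, 1.83 in HF and 1.22 in IFE (log2 ratio 1.72 ± 0.63, adjusted p = 0.093).

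Thy1 (gene ID 21838, chr9:44043384-44048579) had its highest CPM in the normal samples HF and IFE. Against the expected background it was 8.37 times in IFE, but 3.8 times in HF and 4.02 times in Lgr5 Epcam-. In Lgr5 Epcam+ it was 3.28 and 2.51 times and in K14 Epcam+ 3.44 times. The CPM of Thy1 was 39.4 in Lgr5 Epcam-, 22.3 and 19.4 in Lgr5 Epcam+, 30 in K14 Epcam+, 55.9 in HF and 102 in IFE. The log2 ratio of Lgr5 Epcam- to Lgr5 Epcam+ was 0.92 ± 0.29 and did not pass (adjusted p = 0.113), although it did with total-count scaling (0.0382) and in the single-end run alone (0.0345). It did not with loess scaling (0.0744), DESeq2 (0.147), peaks within 10 kb (0.295) or the paired-end run alone (0.222). One of 9 peaks rose, the farthest (chr9:43997390-43998390), with 5.28 CPM in Lgr5 Epcam-, 0.645 and 0.667 in Lgr5 Epcam+, 1.58 in K14 Epcam+, 1.45 in HF and 1.15 in IFE (log2 ratio 3.0 ± 0.58, adjusted p = 0.00609). The highest Thy1 peak (chr9:44040601-44041748) had 1.6 CPM in Lgr5 Epcam-, 3.2 and 2.61 in Lgr5 Epcam+, 2.05 in K14 Epcam+, 13.9 in HF and 26.6 in IFE. All 4 tumour samples lay below both normal samples there, whichever the Epcam sort. The peak of largest ratio among those above the median level of all peaks (chr9:44042699-44043969) lies 50 bp from the gene. It had 7.65 CPM in Lgr5 Epcam-, 3.57 and 3.02 in Lgr5 Epcam+, 3.31 in K14 Epcam+, 12.7 in HF and 14.2 in IFE. Its log2 ratio of 1.21 ± 0.56 did not pass (adjusted p = 0.182).

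Peak by peak, 26 of the 73 rose in Lgr5 Epcam- over Lgr5 Epcam+ (35.6%, against 6.57% of all 177238 peaks tested) and 2 fell (2.74%, against 5.45%). DESeq2 called 14 of the 73 higher and 0 lower, and its share over all peaks is not given here. The median log2 ratio was 0.91 over the 73 peaks and -0.04 over all peaks. By place, 11 of the 31 peaks inside a gene rose, 10 of the 28 outside but within 10 kb, and 5 of the 14 farther out. The shares of all peaks by place are not given here. At 18 of the 73 peaks (24.7%) Lgr5 Epcam- reached 2 times its background and neither Lgr5 Epcam+ sample did, against 5.2% of all peaks. At 8 (11%, against 2.91% of all peaks) Lgr5 Epcam- alone of the 6 samples reached that level, 4 of them at Dcn, 2 at Lum and 1 each at Rgs5 and Thy1. That level was chosen after the values had been seen.

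**Figure D4:**
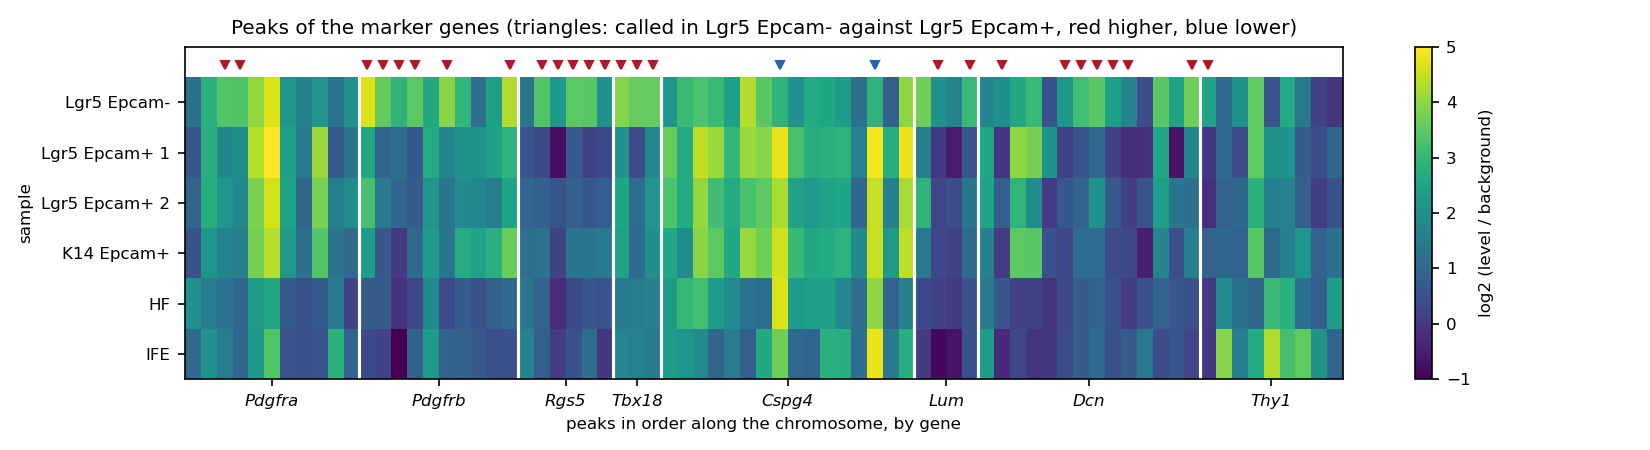
Log2 of the level over the expected background (colour) of the 73 peaks, in order along the chromosome within each gene (horizontal axis), in the 6 samples (rows). Red triangles mark the 26 peaks that rose and blue triangles the 2 that fell in Lgr5 Epcam- against Lgr5 Epcam+. The red triangles cluster over Pdgfrb, Rgs5, Tbx18 and Dcn, and both blue ones stand over Cspg4. A pair of Dcn peaks without a triangle is brighter in every tumour row, Lgr5 Epcam- included, than in the HF and IFE rows.

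Wider marker lists were read in the same comparison. Over all genes 1.89% rose and 2.15% fell, and the median log2 ratio was -0.11. Of 20 further fibroblast genes 7 rose and none fell, with a median log2 ratio of 1.12. Col1a2, a chain of type I collagen, had 146 CPM in Lgr5 Epcam- and 15.4 and 19.9 CPM in Lgr5 Epcam+ (log2 ratio 3.04 ± 0.30, adjusted p = 0.00486). Col3a1, the chain of type III collagen, had 111 CPM in Lgr5 Epcam- and 17.5 and 19.7 CPM in Lgr5 Epcam+ (2.58 ± 0.29, adjusted p = 0.00775). Col5a2 and Col6a2, chains of types V and VI, rose by 2.22 ± 0.30 and 1.99 ± 0.28 (adjusted p = 0.0154 each). Pi16 and Fap, markers of fibroblast subsets, had log2 ratios of 1.22 and 1.18 and did not pass (adjusted p = 0.182 and 0.234). The list was not uniform, since 4 of the 20 lay below 0, led by Dpp4 at -0.77 and Fbln1 at -0.71, which did not pass either (adjusted p = 0.329 and 0.349) and were named after their values were seen.

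Of the 13 pericyte and vascular smooth muscle genes with a peak 1 rose and none fell, with a median of 0.34, and Vtn had no peak. The gene was Tagln, which encodes transgelin, an actin-binding protein of smooth muscle, with 17.7 CPM in Lgr5 Epcam- and 4.01 and 4.12 CPM in Lgr5 Epcam+ (log2 ratio 2.12 ± 0.43, adjusted p = 0.0315). Foxs1, a forkhead factor, and Kcnj8, a potassium channel of pericytes, had log2 ratios of 1.68 and 0.93 and did not pass (adjusted p = 0.0545 and 0.235). Of the 13, 2 lay below 0, Notch3 at -0.45 and Higd1b at -0.16 (adjusted p = 0.548 and 0.925). Both were named after their values were seen. All 10 further small leucine-rich proteoglycan genes lay above 0, with a median of 0.88, and none passed. Ogn and Aspn came nearest, at 1.95 and 1.56 (adjusted p = 0.0515 and 0.0538), and Kera and Epyc, in the same cluster as Lum and Dcn, were at 1.13 and 0.36 (adjusted p = 0.213 and 0.83). Of 10 genes of PDGF ligands and receptor partners none passed and the median was 0.27. Pdgfd, a ligand of Pdgfrb, had 101 CPM in Lgr5 Epcam- and 29.9 and 63.7 CPM in Lgr5 Epcam+ (log2 ratio 1.11 ± 0.40, adjusted p = 0.165), and Nrp1, a co-receptor, was at 0.77 (adjusted p = 0.206). The ligands Pdgfb and Pdgfa, named after their values were seen, were below 0, at -0.50 and -0.47 (adjusted p = 0.568 and 0.548).

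Markers of the other cell types that a sort of skin could hold were as follows. None of 12 endothelial genes passed, with a median of -0.10. Pecam1, the gene of CD31, had 101 CPM in Lgr5 Epcam- and 227 and 211 CPM in Lgr5 Epcam+ (log2 ratio -1.12 ± 0.33, adjusted p = 0.096), while Tek and Kdr, endothelial receptors, were at 1.09 and 0.88 (adjusted p = 0.0816 and 0.233). None of 11 immune genes with a peak passed, with a median of -0.45, and Lyz2 and Fcer1g had no peak. Ptprc, the gene of CD45, had 77.4 CPM in Lgr5 Epcam- and 111 and 131 CPM in Lgr5 Epcam+ (log2 ratio -0.64 ± 0.31, adjusted p = 0.31), and Adgre1, a macrophage marker, was at its background in Lgr5 Epcam- (2.58 CPM, 0.983 times). Summed levels were 858 CPM in Lgr5 Epcam- and 1095 and 909 CPM in Lgr5 Epcam+ for the endothelial list, and 267 CPM in Lgr5 Epcam- and 344 CPM in each Lgr5 Epcam+ sample for the immune list. None of the 10 epithelial to mesenchymal transition genes passed (median 0.47), Cdh2 and Fn1 being highest at 1.79 and 1.23 (adjusted p = 0.0564 and 0.102). This list was not uniform either, with 6 above 0 and 4 below. The lowest was Tgfbi at -0.34 (adjusted p = 0.692), named after its values were seen.

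Of 15 epithelial genes 9 fell and none rose, with a median of -1.80. Epcam had 49.2 CPM in Lgr5 Epcam- and 255 and 237 CPM in Lgr5 Epcam+ (log2 ratio -2.32 ± 0.33, adjusted p = 0.0154), in the direction of the sort. Krt17, Krt5 and Krt14, keratins of stressed and basal keratinocytes, had log2 ratios of -3.22, -2.70 and -2.20 (adjusted p = 0.00832, 0.0207 and 0.0182). Ovol1 and Cldn4, an epithelial transcription factor and a tight junction protein, did not pass (log2 ratios -2.11 and -1.50, adjusted p = 0.0976 and 0.115). The summed epithelial level was 1018 CPM in Lgr5 Epcam- and 4022 and 2926 CPM in Lgr5 Epcam+, and the summed fibroblast level was 2476 CPM in Lgr5 Epcam- and 1619 and 1661 CPM in Lgr5 Epcam+. The part of each cell type in the differences at the 8 genes was not tested.

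**Figure D5:**
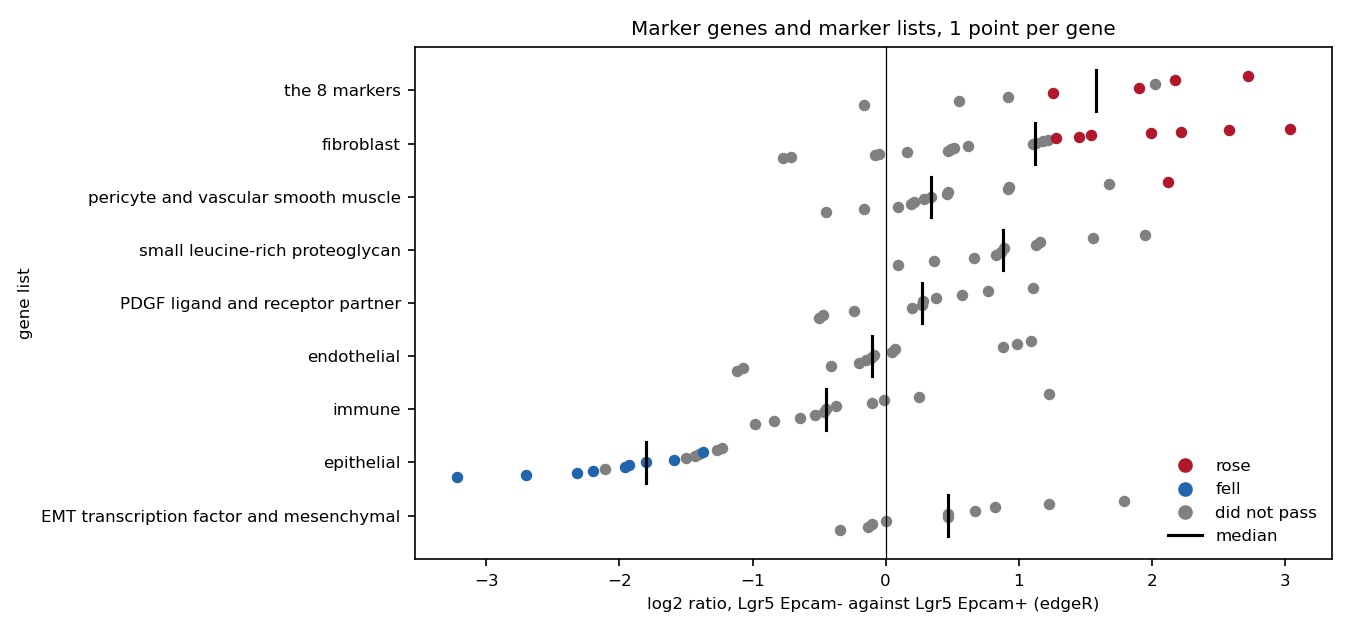
Log2 ratio of each gene in Lgr5 Epcam- against Lgr5 Epcam+ (horizontal axis), 1 point per gene, for the 8 marker genes and 8 further lists (rows), with the list median as a black line. Red points rose, blue points fell and grey points did not pass. Red points occur among the 8 genes and the fibroblast and pericyte lists, and blue points among the epithelial genes.

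Lgr5 Epcam- cells were also set against the normal hair follicle, with 1 sample on each side, so that genes were called by size alone (a log2 ratio of at least 1, and of 0.5 in each run). Pdgfra, Pdgfrb, Rgs5, Tbx18, Lum and Dcn were higher in Lgr5 Epcam- than in HF, 6 of 8 genes against 11.8% of all genes, and none was lower, against 7.37%. The log2 ratios were 2.07 for Pdgfrb (95% interval for counting error only 1.90 to 2.25), 1.98 for Lum (1.77 to 2.22), 1.67 for Tbx18 (1.54 to 1.81), 1.59 for Rgs5 (1.43 to 1.75), 1.47 for Dcn (1.37 to 1.58) and 1.10 for Pdgfra (1.02 to 1.18). Cspg4 and Thy1 were at -0.34 and -0.51, short of the size rule. Other peaks within 5 Mb of Thy1 had a median of -0.61 here, and its ratio ran from -0.75 to 0.11 across settings. With total-count scaling Pdgfra was at 0.95 and 5 genes were called, and the share of all genes with that scaling is not given here. With the background subtracted, the ratios were 3.25 for Lum, 2.72 for Pdgfrb, 2.20 for Dcn and 2.19 for Rgs5. By the peak rule (at least 2, and 1 in each run) 12 of the 73 peaks were higher (16.4%, against 7.51% of all peaks) and 3 were lower (4.11%, against 6.59%). The 12 comprised 6 at Pdgfrb, 2 each at Rgs5 and Dcn and 1 each at Lum and Cspg4, and the 3 lower ones were 2 at Thy1 and 1 at Cspg4. There is no replicate check of these differences, and the background was higher in HF than in Lgr5 Epcam-.

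Epcam+ tumour cells were compared with the normal tissue of their origin. In Lgr5 Epcam+ against HF none of the 8 rose, against 5.75% of all genes, and 1 fell, against 2.58%. Higher genes made up 69.1% of all calls, 38.2% with total-count scaling, 48.2% with loess scaling and 80.1% with DESeq2. The gene that fell was Thy1, with 22.3 and 19.4 CPM in Lgr5 Epcam+ and 55.9 CPM in HF (log2 ratio -1.42 ± 0.28, edgeR adjusted p = 0.0214). Other peaks within 5 Mb of Thy1 had a median of -0.64, and relative to them its ratio was -0.79. Rgs5 was at -1.13 ± 0.42 and did not pass (adjusted p = 0.127), although it did with total-count scaling and in the single-end run alone. It did not with loess scaling (0.0977), DESeq2 (0.15) or the paired-end run alone (0.255). The other 6 genes had log2 ratios of -0.50 to 0.55. Of the 73 peaks 4 rose (5.48%, against 9.30% of all peaks) and 6 fell (8.22%, against 7.41%). With loess scaling 0 rose, in the paired-end run alone 2 rose, and with total-count scaling 13 fell. The shares of all peaks under these settings are not given here. The highest Pdgfra peak and the highest Dcn peak were among those that rose with the main scaling, by 1.27 ± 0.34 and 2.30 ± 0.69 (adjusted p = 0.021 and 0.0338).

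In K14 Epcam+ against IFE, again 1 sample on each side, Pdgfrb was higher and Thy1 lower by size, 1 of 8 genes each way against 9.38% and 8.54% of all genes. Pdgfrb had 40.3 CPM in K14 Epcam+ and 18.6 CPM in IFE, a log2 ratio of 1.11 (counting interval 0.90 to 1.33) that rests on the paired-end run. Over the peaks inside the gene alone it was -0.08. Thy1 had 30 CPM in K14 Epcam+ and 102 CPM in IFE, a log2 ratio of -1.77 (-1.87 to -1.66). Of the 73 peaks 5 were higher and 4 lower (6.85% and 5.48%, against 7.42% and 5.97% of all peaks). At Thy1 both tumour types thus lay below their normal tissue, and the test of the difference between the 2 tumour changes gave 0.35 ± 0.45 (adjusted p = 0.821). No gene of the 8 passed in that test, nor did any of the 18108 genes, and none of the 73 peaks did, against 0.000564% of all peaks higher and 0% lower. At an unadjusted p under 0.05 it held 1001 genes, none of the 8, and DESeq2 called 4 genes, none of the 8.

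The 2 tumour types, Lgr5 Epcam+ against K14 Epcam+, differed at none of the 8 genes in either direction, against 0.00552% of all genes each way, and at none of the 73 peaks, against 0.00113% of all peaks higher and 0.00395% lower. At an unadjusted p under 0.05 there were 645 genes, none of the 8, and DESeq2 called 14 genes, none of the 8. Log2 ratios ran from -0.89 ± 0.43 for Rgs5 and -0.64 ± 0.37 for Pdgfrb to 0.15 ± 0.30 for Pdgfra. HF against IFE also gave no gene of the 8 by size, against 1.76% of all genes higher and 3.26% lower, and no peak of the 73, against 1.72% of all peaks higher and 0.749% lower. Thy1 came closest, at -0.87 (counting interval -0.96 to -0.78), with 55.9 CPM in HF and 102 CPM in IFE. The same size rule between the 2 Lgr5 Epcam+ samples called 3.01% of genes higher and 2.21% lower.

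Across the 6 samples the 8 genes did not move as one. Pearson's r of log2 CPM, given as a description over 6 points that share libraries, was 0.969 between Rgs5 and Tbx18, 0.959 between Pdgfrb and Dcn and 0.861 between Pdgfra and Pdgfrb. Cspg4 had r of -0.428 to -0.118 with the other 7, and Thy1 of -0.503 to 0.419. Among 9051 other genes above the median level, the patterns most like those of the members were Ncam1 for Rgs5 (r = 0.996), Adamts9 for Tbx18 (0.991), Vcam1 for Pdgfrb (0.978), Maml1 for Pdgfra (0.994), Fez2 for Dcn (0.993), Gask1b for Lum (0.995), Dixdc1 for Cspg4 (0.991) and Gata3 for Thy1 (0.992).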

How the data were processed

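The authors deposited raw counts of reads per peak in 12 tables, 1 table for each of the 2 runs (single-end and paired-end) of 6 samples, over 1 shared list of peaks (mm10). Bowtie2, HOMER, bedtools and HTSeq are named in the submitters' processing notes, while versions, read filters, any Tn5 shift and peak calling settings are not stated in the labels. HTSeq summary counts outside peaks gave the background and stayed out of library sizes and tests.

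Both runs were summed and treated as 1 sample. From chromosome 15 to X the paired-end run was used alone, because the single-end K14 Epcam+ run had 11.1% of its peak counts there, against 18.6% to 21.1% in the other 11 runs. Among the 8 genes this touches Pdgfrb. Genes and spans came from the RefSeq table of GRCm38.p6. Peaks, and counts summed per gene, were tested with edgeR 4.0.16 (R 4.3.3, limma 3.58.1): filterByExpr with a minimum count of 10 (18108 genes and 177238 peaks kept), TMM factors from chromosomes 1 to 14, 1 robust quasi-likelihood model of all 6 samples with 1 residual degree of freedom, and Benjamini-Hochberg adjustment over all genes or peaks at 0.05. The biological coefficient of variation was 0.23 for genes and 0.33 for peaks. SE of a log2 ratio is its size divided by the square root of F. Comparisons of 1 sample with 1 have no test. They use log2 ratios of CPM with a prior count of 2, the size rules given with the results, and exact 95% intervals (Clopper-Pearson) for counting error only, since PCR copies are not independent molecules. Alternatives were total-count and loess scaling, DESeq2 1.42.0, no filter, nearer peaks, each run, both runs everywhere, background subtraction, leaving out a Lgr5 Epcam+ sample and centring on the region of the gene, the last chosen after seeing the data.

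All 8 genes are named. From each of 8 further lists up to 4 genes that passed and up to 2 that did not, by size of ratio, are named, with Ptprc, Pecam1, Epcam, Csf1r, Kdr, Kera and Epyc. Peaks named are mainly the highest on average, the one of largest ratio among those above the median level of all peaks, and promoter peaks. Some others are named because they passed, lay at the edge of the window, or after their values were seen. The members, lists and tests were chosen with earlier results of these data known. The tumour genotypes are not reported here in full.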

Additional observations from a re-analysis of the deposited data

How the results depend on the processing

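In Lgr5 Epcam- against Lgr5 Epcam+, Pdgfrb, Rgs5 and Tbx18 kept their direction and passed under every alternative with a test, and Dcn under all but the paired-end run alone. Without 1 Lgr5 Epcam+ sample, for which no test is possible, log2 ratios were 2.41 and 3.08 for Rgs5, 1.87 and 2.54 for Tbx18, 1.88 and 1.90 for Pdgfrb, 1.11 and 1.42 for Dcn and 1.53 and 2.72 for Lum, and no count of calls was made. The count of peaks called higher was 14 with DESeq2, and of peaks called lower 0 with loess scaling, DESeq2 or the paired-end run alone and 1 with both runs summed everywhere. In Lgr5 Epcam+ against HF, genes called lower were 2 with total-count scaling or the single-end run alone and 0 over peaks inside the gene, where no Thy1 peak has its midpoint. Peaks called higher were 0 with loess scaling and 2 in the paired-end run alone, and peaks called lower 13 with total-count scaling. In Lgr5 Epcam- against HF, peaks called higher were 27 with the background subtracted. In K14 Epcam+ against IFE, genes called higher were 0 over peaks inside the gene (Pdgfrb -0.08), with both runs summed everywhere and in the single-end run alone, and genes called lower 0 over peaks inside the gene. Peaks called higher were 10 and lower 7 with the background subtracted, and 2 were lower in the single-end run alone. In HF against IFE, the paired-end run alone gave 1 gene higher, 1 lower, 3 peaks higher and 1 lower, and background subtraction 5 peaks higher and 1 lower. The shares of all genes and peaks called under these alternatives are not given here, so these counts cannot be set against the whole series. The cause was not tested for these shifts, save where a construction with fewer peaks or runs gives it. Total-count scaling moved the median of all genes by 0.19 (log2) in Lgr5 Epcam- against Lgr5 Epcam+ and by -0.33 in Lgr5 Epcam+ against HF.

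No paired analysis was possible because only Lgr5 Epcam+ has more than 1 sample. Subtraction and centring give values with no test. Lum and Thy1 have no peak with its midpoint inside their span, though peaks of both overlap an end of the span. Counts per gene ran from 120 to 8298 per sample, and the spread between samples is known from 1 pair.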
